A study of Mus musculus with 2 samples.

Results

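The BCL2 family genes described here are Bcl2, Bcl2l1, Mcl1, Bax, Bak1, Bad, Bid, Bcl2l11, Bbc3 and Pmaip1. They were chosen by name, as every non-control spot whose gene name on the array was one of these symbols. All 10 were found, read by 19 probes on 46 spots per array, and all 19 probes were well above background on both arrays, in a set of 27370 gene names on the array. The cells were leukaemia-initiating cells (LICs), the leukaemia cells able to pass on the disease, from bone marrow of female mice with acute myeloid leukaemia. In both groups the leukaemia expressed MLL-AF9, a fusion oncogene, together with YFP, and the cells were sorted as positive for YFP, for Mac-1, a myeloid integrin, and for c-Kit, a progenitor receptor. The Jam3-null group lacked Jam3, which encodes a junctional adhesion molecule, and the WT group carried it. Each group was 1 one-colour array of RNA from 3 mice, so the spread between leukaemias was not measured. The age of the mice and the way Jam3 was deleted are not given in the sources used here.

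Proteins of this family set whether the outer membrane of the mitochondrion stays intact. BAX and BAK1, the effectors, form pores that let cytochrome c out and start the caspases, and BCL2, BCL-xL (from Bcl2l1) and MCL1 hold them in check. The BH3-only proteins BIM (from Bcl2l11), PUMA (from Bbc3), NOXA (from Pmaip1), BID and BAD carry stress or growth factor signals to the others, by binding the survival proteins or by activating the effectors. Myeloid cells are known to lean on MCL1, and acute myeloid leukaemia cells often on BCL2, the target of the drug venetoclax.

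Which stretch of a transcript each probe reads matters for these genes, since several have splice forms. The sequences below are probes in coding sequence, 60 bases each, from the array files, written 5′ to 3′, with positions on mm9. The Bcl2 probe lay on chr1:108608970-108609029 (minus strand), and its capitals mark the end of the stretch for the BH1 domain. In the Bak1 probe, on chr17:27158232-27158291 (minus strand), the capitals mark the codons at the heart of BH1. The Bcl2l11 probe was placed on chr2:127972893-127983988 (plus strand), a span of 11096 bases, so it crosses a splice junction, and its capitals mark the pair of codons at the centre of the BH3 domain. The Bax probe, on chr7:52721469-52721624 (minus strand), spans 156 bases and also crosses a junction. The Bcl2l1 probe lay on chr2:152655185-152655244 (minus strand).
Bcl2: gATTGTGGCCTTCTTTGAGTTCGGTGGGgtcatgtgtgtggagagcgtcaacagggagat
Bak1: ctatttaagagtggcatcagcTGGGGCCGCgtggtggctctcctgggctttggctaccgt
Bcl2l11: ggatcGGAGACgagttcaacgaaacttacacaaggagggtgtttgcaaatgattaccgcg
Bax: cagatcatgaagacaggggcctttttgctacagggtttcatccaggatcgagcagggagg
Bcl2l1: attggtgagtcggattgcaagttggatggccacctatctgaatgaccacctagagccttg

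Values below are processed signals, which are background-subtracted intensities, or their log2 relative to the 75th percentile signal of the array, which was 667.8 for Jam3-null and 713.9 for WT. A log2 difference is Jam3-null minus WT, so a positive one means a higher signal in Jam3-null LICs. With 1 array per genotype no difference has a replicate check and no p-value is given. The SD given beside a difference is that of the scanner software's error model for the spots, and covers measurement error only. The share of non-control spots well above background was 55.0% for Jam3-null and 61.8% for WT. Neither of the Jam3 probes was well above background on any array (28.1 and 5.40 for Jam3-null, 5.09 and 3.23 for WT), so Jam3 did not check the genotype labels. Of the genes used in the sort, Kit differed by 0.09 and Itgam, which encodes a Mac-1 chain, by 3.71 in log2. Other progenitor and leukaemia genes went both ways. Cd34 and Flt3 differed by -3.41 and -3.51, and Ptprc, Hoxa9 and Meis1 by 0.61, 0.73 and 0.81.

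The family did not move as a block. Bcl2 was 7.83-fold lower in Jam3-null LICs and Bcl2l11 was 4.28-fold higher, while the other survival genes, Mcl1 and Bcl2l1, were higher by less than 2-fold. Bax, Bid and Bad were lower by less than 2-fold, and Bak1, Bbc3 and Pmaip1 differed by little more than the measurement error or by less. In sorted bulk RNA, fewer cells with a transcript cannot be told apart from less of it per cell. Taking for each gene its probe with the highest mean signal, 5 members were higher and 5 lower, with a median log2 difference of -0.10, against a median of -0.07 over the 14376 genes well above background on both arrays. At least 2-fold higher was 1 of 10 members, where 10.3% of all measured genes passed that fold, and at least 2-fold lower was 1 of 10, where 8.6% did. These shares are near the background, so the counts alone do not set the family apart. Bax at -0.99 and Mcl1 at 0.97 lay just under the 2-fold mark, a log2 difference of 1, and no member lay just past it.

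**Figure D1:**
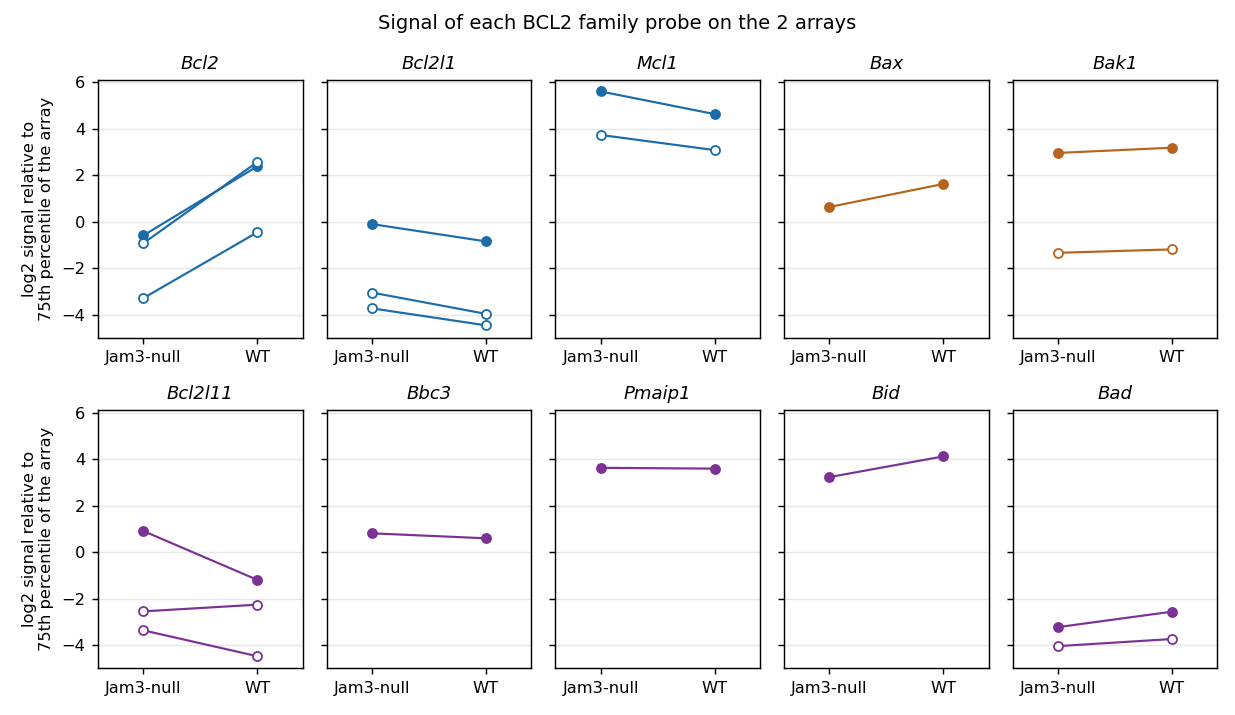
Log2 signal of each BCL2 family probe relative to the array's 75th percentile, with the Jam3-null array on the left and the WT array on the right of each panel. Each line is 1 probe, filled points are the probe with the highest mean signal of its gene, and colours mark survival genes (blue), effectors (brown) and BH3-only genes (purple). The Bcl2 lines lie lower on the Jam3-null array, with log2 differences of -3.48 to -2.83, whereas the Bcl2l11 lines do not run the same way.

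Among the survival genes, Bcl2 stood out. Its brightest probe, in the coding sequence printed above, had a signal of 446 in Jam3-null LICs and 3734 in WT LICs, a log2 difference of -2.97 (error-model SD 0.20). Only 90 of the 14376 measured genes had a difference this low or lower. A second probe, in the last part of transcript variant 1 at chr1:108434793-108434852, was printed 10 times on each array. The 8 spots kept on the Jam3-null array ran from 342 over a median of 356 to 375, and the 9 kept on the WT array from 4012 over 4291 to 4427. The log2 difference of this probe was -3.48 (error-model SD 0.21), or 11.2-fold lower. The third probe, from a cDNA clone and on chr1:108607310-108607369, gave 68.9 in Jam3-null LICs and 522 in WT LICs, a difference of -2.83 (error-model SD 0.23). All 3 Bcl2 probes were thus lower by more than 2-fold. The array file assigns the coding probe to variant 2, but does not show that it reads variant 2 alone, so the 2 variants were not told apart. The dimmest of them was at -2.16 after another background correction (normexp), which pulls dim signals together by its offset.

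Mcl1, whose protein is short-lived and is required by many myeloid cells, was higher on the Jam3-null array in both probes. The brighter one, at chr3:95466855-95466914, had signals of 32573 in Jam3-null LICs and 17741 in WT LICs, a log2 difference of 0.97 (error-model SD 0.20). The other, 5′ of it at chr3:95465543-95465602, had 8906 in Jam3-null LICs and 6069 in WT LICs, a difference of 0.65 (error-model SD 0.20). Both were larger than the measurement error, and whether they exceed the spread between leukaemias was not measured.

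Bcl2l1, which encodes the survival protein BCL-xL in its long splice form and a death-promoting protein in its short one, was also higher. Its brightest probe, at chr2:152606631-152606690, was printed 10 times. In Jam3-null LICs its 10 spots ran from 596 over a median of 622 to 656, and in WT LICs from 372 over 402 to 420. The log2 difference of this probe was 0.74 (error-model SD 0.21). The coding probe printed above gave 81.3 in Jam3-null LICs and 46.1 in WT LICs, a difference of 0.91 (error-model SD 0.27), and the third probe gave 50.8 in Jam3-null LICs and 32.8 in WT LICs, a difference of 0.73 (error-model SD 0.30). All 3 Bcl2l1 probes were higher, by 1.66-fold to 1.88-fold, and the 2 dimmer ones came to 0.45 and 0.40 after normexp correction. The array probes were not assigned to the long or the short form in the files.

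**Figure D2:**
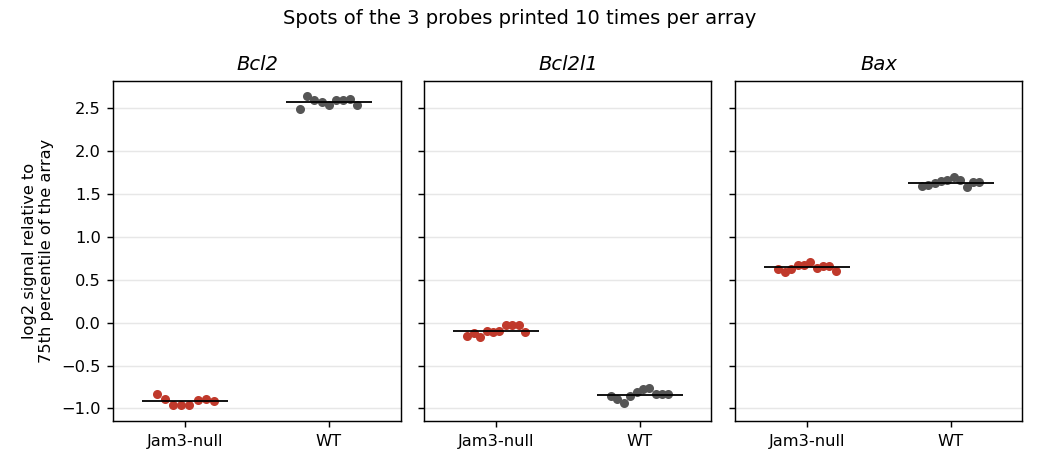
Log2 signal of every kept spot of the Bcl2, Bcl2l1 and Bax probes that were printed 10 times per array, relative to the array's 75th percentile, with the Jam3-null array left of the WT array. Points are spots, which share 1 labelled RNA, and black lines are their means. Spot SDs are 0.03 to 0.05. Over all 127 measured probes with at least 5 kept spots per array, the median spot SD was 0.05 for Jam3-null and 0.06 for WT. The median difference of all measured genes was 0.45 in size, so separate spots are no mark of these 3 genes.

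Both effectors had lower signals on the Jam3-null array, and by unequal amounts. Bax was read by 1 probe, printed 10 times. Its spots ran from 1007 over a median of 1043 to 1087 in Jam3-null LICs and from 2126 over 2220 to 2315 in WT LICs. The log2 difference was -0.99 (error-model SD 0.20), or 1.98-fold lower. Bak1 had signals of 5216 in Jam3-null LICs and 6515 in WT LICs in its brighter probe at chr17:27156967-27157026, a difference of -0.22 (error-model SD 0.20). Its BH1 probe printed above gave 266 in Jam3-null LICs and 315 in WT LICs, a difference of -0.15 (error-model SD 0.21). The Bak1 differences were about as large as the measurement error.

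The BH3-only genes went both ways, from -0.89 for Bid to 2.10 for Bcl2l11, with a median of 0.03. Bcl2l11 encodes BIM, which binds all the survival proteins and is known to be induced when growth factor signals are withdrawn. Its brightest probe, near the 3′ end of the transcript at chr2:127988051-127988110, had signals of 1252 in Jam3-null LICs and 313 in WT LICs, a log2 difference of 2.10 (error-model SD 0.21). Of all measured genes, 429 had a difference this high or higher. The BH3 probe printed above was dim, with 64.9 in Jam3-null LICs and 32.1 in WT LICs, a difference of 1.11 (error-model SD 0.31) that came to 0.51 after normexp correction. The third probe, which the array file assigns to a separate Ensembl transcript and places on chr2:127954736-127955417, gave 114 in Jam3-null LICs and 149 in WT LICs, a difference of -0.29 (error-model SD 0.23). Bcl2l11 was thus higher in the probes of the RefSeq transcript and not in the other. Of the 6 family genes with several measured probes, Bcl2l11 was the 1 whose probes differed in sign, against 25.1% of the 5177 such genes on the array. Probes of opposite sign with at least 1 of them 2-fold apart were found in 2.43% of those genes, Bcl2l11 among them. With the mean of its 3 probes in place of the brightest, its difference was 0.97.

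Bbc3 and Pmaip1, which encode PUMA and NOXA and are classic targets of p53, differed little between the arrays. Bbc3 had signals of 1169 in Jam3-null LICs and 1077 in WT LICs, a log2 difference of 0.21 (error-model SD 0.20). Pmaip1 had 8231 in Jam3-null LICs and 8595 in WT LICs, a difference of 0.03 (error-model SD 0.20), which turned to -0.03 with scaling to spike-in controls. Each was read by 1 probe on 1 spot per array.

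Bid, which links the death receptors to mitochondria once caspase-8 has cut it, was lower in its single probe. It had signals of 6244 in Jam3-null LICs and 12365 in WT LICs, a log2 difference of -0.89 (error-model SD 0.20), or 1.85-fold lower. Bad, which growth factor kinases hold inactive by phosphorylation, was dim, with 71.5 in Jam3-null LICs and 121 in WT LICs, a difference of -0.66 (error-model SD 0.24) that came to -0.43 after normexp correction. A second probe with this gene name gave 40.6 in Jam3-null LICs and 53.6 in WT LICs, a difference of -0.30 (error-model SD 0.29). The array file places it at chr19:7025594-7025653 on the minus strand, whereas the first Bad probe lies at chr19:7016618-7016677 on the plus strand, so the second may not read Bad.

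**Figure D3:**
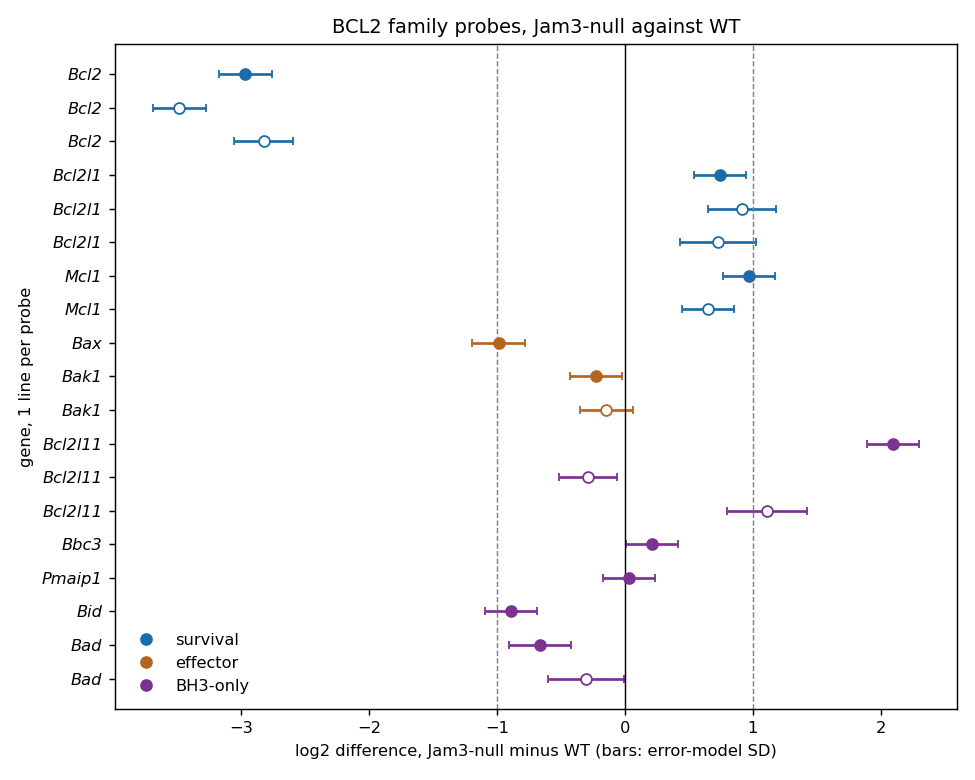
Log2 difference of each BCL2 family probe, Jam3-null minus WT, with the error-model SD as bars, dashed lines at 2-fold and filled points for the probe with the highest mean signal. The 3 Bcl2 probes lie at -3.48 to -2.83, the Bcl2l1 and Mcl1 probes at 0.65 to 0.97, and the 3 Bcl2l11 probes at -0.29 to 2.10.

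Differences between members do not depend on any factor that scales a whole array, and so show unequal change within the family more directly. Bcl2l11 and Bcl2 were 5.07 apart in log2 (error-model SD 0.29), so the Bcl2l11 signal relative to that of Bcl2 was higher in Jam3-null LICs by that amount. The gap was 4.76 after normexp correction, 5.03 after quantile normalization and 5.04 after cyclic loess, and it was 4.07 with the mean over the measured probes of each gene. Mcl1 and Bcl2 were 3.94 apart and Bcl2l1 and Bcl2 3.71 apart, with Bcl2 the lower in each pair. The effectors were closer, with Bax minus Bak1 at -0.76 (error-model SD 0.29). Within the BH3-only genes, Bcl2l11 was 2.99 above Bid and 2.76 above Bad, and with the mean over probes 1.86 above Bid and 1.46 above Bad.

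**Figure D4:**
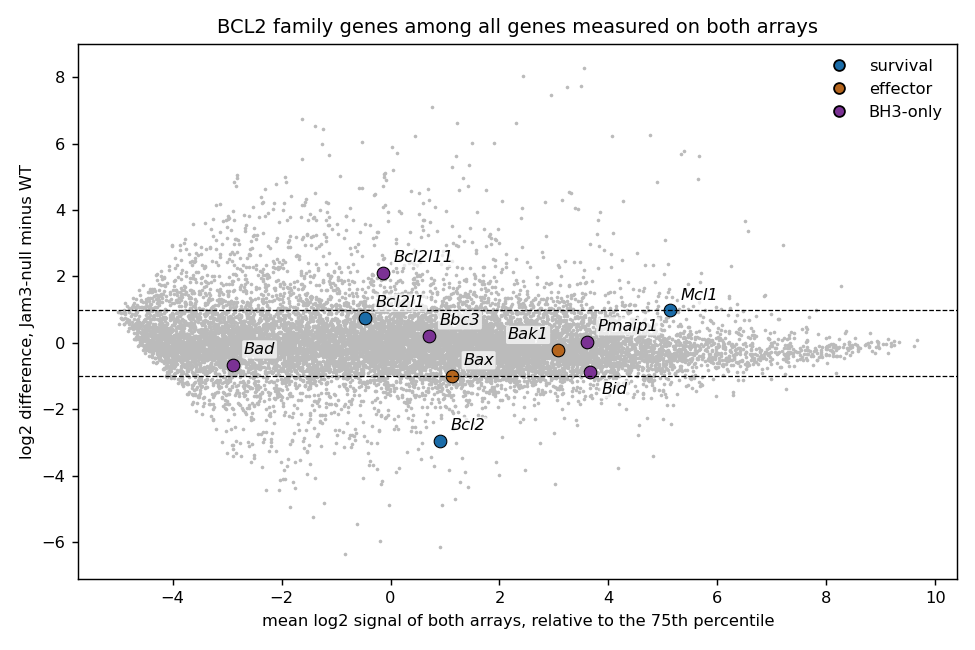
Mean log2 signal of both arrays (horizontal, relative to the 75th percentile) against the log2 difference, Jam3-null minus WT (vertical), for the 14376 genes well above background on both arrays, in grey, with the 10 BCL2 family genes coloured by role. Dashed lines mark 2-fold, and Bcl2 at -2.97 and Bcl2l11 at 2.10 are the members outside them.

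The median size of the difference, without its sign, was 0.82 in log2 over the 10 members and 0.45 over all measured genes. Of the measured genes, 97.8% had a smaller difference in size than Bcl2 and 95.5% a smaller one than Bcl2l11. For Bax this share was 80.8%, for Mcl1 80.2%, for Bid 77.0%, for Bcl2l1 70.5% and for Bad 66.1%. For Bak1 it was 28.1%, for Bbc3 26.9% and for Pmaip1 4.48%. Over all 10 members the shares thus ran from 4.48% to 97.8%, which is a description of the 2 arrays.

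Other genes of the pathway were taken from 8 lists with 75 genes, of which 68 were well above background on both arrays. By at least 2-fold, 11 of these were higher (16.2%, against 10.3% of all measured genes) and 6 lower (8.82%, against 8.6%), with a median of 0.04, against -0.07 over all measured genes. The same all-gene shares, 10.3% higher and 8.6% lower, are the background of each single list, and a list held 3 to 12 measured genes. From each list the 3 genes with the largest difference are named.

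The other survival genes of the family resembled Mcl1 and Bcl2l1 in direction. All 3 that were measured had higher signals on the Jam3-null array, none by 2-fold. Bcl2a1c was at 0.86, Bcl2a1b at 0.81 and Bcl2l2, which encodes BCL-w, at 0.64. The Bcl2a1 genes, which encode A1 proteins of blood cells, are almost the same in sequence, and a probe for one may read the others. Of 9 further effector, BH3-only and BCL2-like genes measured, 3 were higher and 1 lower by at least 2-fold. They were led by the BH3-only gene Bik at 1.30 (0.55 after normexp correction), Bcl2l14 at -1.21 (-0.90) and Bcl2l15 at 1.10 (0.76), with the value after that correction in brackets.

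Downstream of the mitochondrion, 1 of 11 genes was higher and 2 were lower by at least 2-fold. Endog, a mitochondrial nuclease, was at -1.47 with signals of 759 in Jam3-null LICs and 2242 in WT LICs. Apaf1, the scaffold of the apoptosome, was at 1.24 with all 3 probes higher, and at 0.88 as their mean. Cycs, which encodes the cytochrome c that BAX and BAK1 release, was at -1.04 with all 3 probes lower, and at -0.83 after quantile normalization. The 5 inhibitor of apoptosis genes differed by less than 2-fold each, with Birc3 at 0.41, Birc2 at 0.35 and Xiap, the direct caspase inhibitor, at 0.25.

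Genes of p53 and its targets went both ways, with 1 of 12 higher and 3 lower by at least 2-fold (median -0.07). Perp, a membrane protein gene, was at -4.94 (-3.50 after normexp correction), with signals of 33.4 in Jam3-null LICs and 1097 in WT LICs. Phlda3, whose protein restrains AKT, was at -4.83 (-3.74 after normexp correction), and Trp53inp1 was at 1.97. Of the 7 measured death receptor genes, 3 were higher and 0 lower by at least 2-fold. The list gene Tnfrsf10b was not among these 7, being dim and well above background on the WT array only. Its signals were 24.1 in Jam3-null LICs and 60.1 in WT LICs. Set against the dimmest well-above-background signal of the Jam3-null array, its difference was -1.12 or lower. Fas, a death receptor, had signals of 569 in Jam3-null LICs and 65.4 in WT LICs, a difference of 3.22 (2.37 after normexp correction). Tnfrsf1a, a TNF receptor gene, was at 1.52, and Cflar, which encodes the caspase-8 inhibitor FLIP, was at 1.10 with all 7 probes higher, and at 0.63 as their mean.

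Partners and turnover genes of the family differed by less than 2-fold in all 11 cases (median -0.34). Huwe1, a ubiquitin ligase of MCL1, was at -0.95 with all 7 probes lower, and at -1.02, past 2-fold, with spike-in scaling. Vdac1, a channel of the outer mitochondrial membrane, was at -0.82, and Mtch2, a mitochondrial receptor for cut BID, was at -0.71 with 2 probes lower and 1 higher. Of 10 measured regulators, 3 were higher and 0 lower by at least 2-fold. Stat3, a transcription factor of cytokine signalling, was at 1.54, and the survival kinase gene Pim1 at 1.39. The third was the stress transcription factor gene Ddit3, just past 2-fold, with signals of 654 in Jam3-null LICs and 349 in WT LICs, and at 0.88 after normexp correction.

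**Figure D5:**
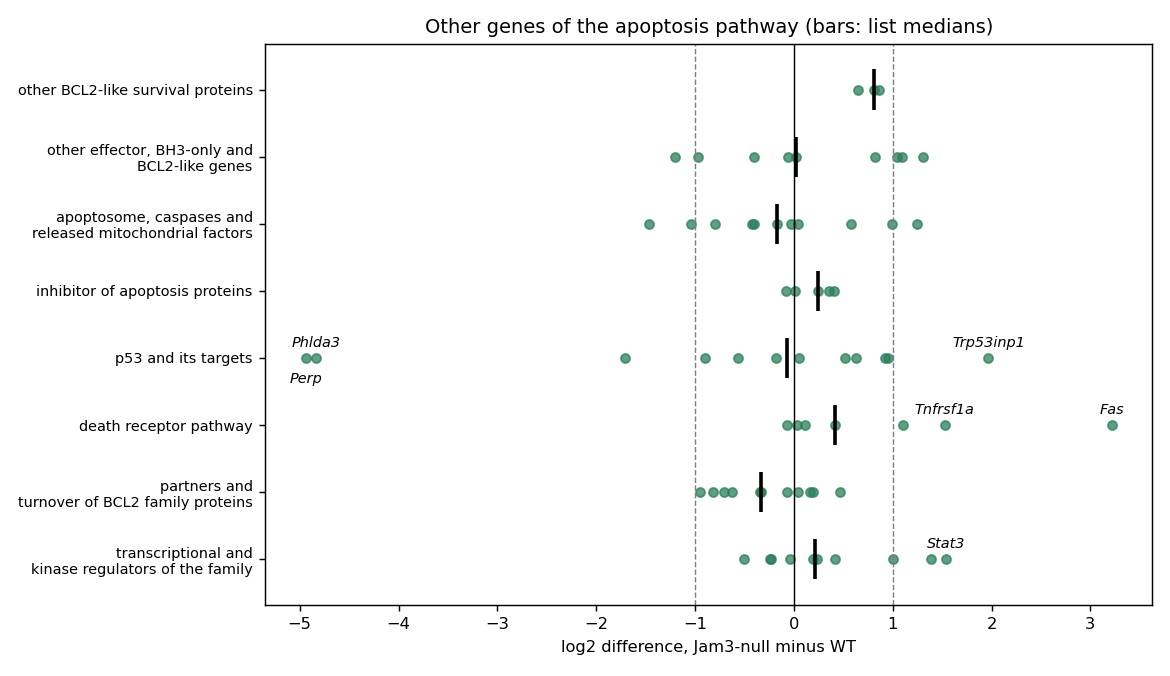
Log2 difference, Jam3-null minus WT, of the 68 measured genes in 8 apoptosis lists, with 1 point per gene, black bars at the list medians and dashed lines at 2-fold. Points of the 3 other survival genes lie at 0.64 to 0.86, and Perp and Phlda3 lie apart at -4.94 and -4.83.

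Many markers of progenitors, of maturation and of other cells differed between the arrays. For each marker list the background is again the share of all measured genes past 2-fold, 10.3% higher and 8.6% lower. Of 7 sorted progenitor and leukaemia genes, 5 were higher and 2 lower, with a median of 0.61. Ptprc at 0.61, Hoxa9 at 0.73 and Meis1 at 0.81 were among the higher. By at least 2-fold, 1 was higher and 2 were lower. The lower ones, named after their values were seen, were the progenitor marker Cd34, at 5740 in Jam3-null LICs and 65316 in WT LICs (-3.41), and the receptor gene Flt3, at 291 in Jam3-null LICs and 3534 in WT LICs (-3.51). All 11 neutrophil maturation genes found by name were at least 2-fold higher on the Jam3-null array (median 4.30), and their summed signal, in units of the array's 75th percentile signal, was 1543 in Jam3-null LICs and 249 in WT LICs. Mast cell, basophil and eosinophil genes were lower, 6 of 7 measured by at least 2-fold, with summed signals of 9.60 in Jam3-null LICs and 48.7 in WT LICs. Of dendritic cell genes, 4 of 9 measured were at least 2-fold lower, with summed signals of 7.62 in Jam3-null LICs and 32.6 in WT LICs. Of B cell genes 3 of 7 were measured, with sums of 11.9 in Jam3-null LICs and 18.8 in WT LICs, and Pax5 was not well above background on either. Of T and NK cell genes 4 of 8 were measured, with sums of 23.1 in Jam3-null LICs and 6.61 in WT LICs. Nearly all of both sums was Nkg7, singled out after its values were seen, at 15160 in Jam3-null LICs and 4526 in WT LICs. The other 3, Cd3e, Cd3g and Cd4, were dim, at 32.3 to 74.1 on the 2 arrays, with differences of -0.25 to -0.11. Erythroid genes summed to 3.04 in Jam3-null LICs and 1.08 in WT LICs, and megakaryocyte genes to 1.41 in Jam3-null LICs and 0.60 in WT LICs, with Ppbp and Gp1ba below background on both. The part of cell composition and maturation in the Bcl2, Bcl2l11 and other differences was not tested.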

How the data were processed

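Cy3-labelled RNA was hybridised to 2 one-colour arrays of 1 slide and 1 scan, per the file headers, so neither separates the genotypes. Spot intensities were made by the authors with Agilent Feature Extraction 10.7.3.1 (10.7 in the submitters' processing notes), background-subtracted and detrended within each array, per the file headers, and were deposited without normalization between arrays. The deposited table of values, which are on a log2 scale (column medians 5.66 in both, Pearson r across probes with the processed signals 0.999 on each array), served as an alternative only. Its sorted columns were nearly equal (largest gap 0.00038), as quantile normalization makes them, and no source used here names its normalization. As an alternative it may thus largely repeat the one with quantile normalization.

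Spots flagged as outliers were left out (2 member spots for Jam3-null and 1 for WT). Log2 processed signals, less the log2 of the array's 75th percentile, were averaged per probe. A gene took its brightest probe among those well above background on both arrays, and every member probe is given. Normexp (offset 50), quantile and cyclic loess used limma 3.58.1. Gene-level steps were tested on simulated data. Members and lists were chosen with earlier results of these data known. Coordinates (mm9) and probe sequences came from the array files. With 1 array per group no test was run.

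Named were all members and, per list, the 3 measured genes with the largest absolute difference, with Jam3, Kit and Itgam. Other named marker genes came from the marker lists, and some, Cd34, Flt3 and Nkg7 among them, were named after their values were seen. Of 75 list genes, 73 were found by name. Brightness over background limits the precision of dim probes, and so does the number of arrays.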

Additional observations from a re-analysis of the deposited data

How the results depend on the processing

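Over 10 alternatives, each a change of 1 processing choice, the log2 difference of Bcl2 ranged from -3.09 to -2.86. With no filter on dim probes, among the brighter genes only and with flagged spots kept, it stayed at -2.97. Those choices did not change the probe or spot used for Bcl2, so they could not move it. No member at least 2-fold apart turned its direction. The number of members at least 2-fold higher (1) was 2 with quantile normalization, cyclic loess or the authors' value table, where Mcl1 passed the mark, and Mcl1 was at 1.19 with cyclic loess. It was 0 with the mean over measured probes, where Bcl2l11 was at 0.97, and 0 among the brighter genes only, where 7 members were left and Bcl2l11 was not among them. The number at least 2-fold lower (1) was 2 with median or spike-in scaling, where Bax passed the mark. The median of all measured genes, -0.07, was -0.14 with spike-in scaling and 0.06 with cyclic loess, and over all alternatives Bak1 ranged from -0.29 to -0.07, Bbc3 from 0.15 to 0.30 and Pmaip1 from -0.03 to 0.21. All genes at least 2-fold higher and lower numbered 1477 and 1236, against 2834 and 2922 with no filter on dim probes and 522 and 568 among the brighter genes only. Of the other lists, Cycs was under 2-fold also with cyclic loess (-0.81) and in the authors' value table (-0.86), and Ddit3 was past 2-fold with cyclic loess (1.06) and under it with median, quantile or spike-in scaling and in that table. No paired analysis was possible because each group has 1 array.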
